A study of Homo sapiens with 20 samples.

Results

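The genes described here encode the cellular inhibitor of apoptosis proteins cIAP1 (BIRC2) and cIAP2 (BIRC3), their relative XIAP, the TNF receptor-associated factors TRAF1, TRAF2 and TRAF3, and the kinase NIK (MAP3K14). They were taken by gene symbol from the table of read counts of U2-OS cells, a human osteosarcoma line. Of the 7 genes, 6 had a row among the 20314 genes of the table, and all 6 were tested. The expression of MAP3K14 was not analysed here.

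mRNA was sequenced in 20 libraries, 5 in each of 4 groups. The untreated group was U2-OS cells with no treatment named. A pair of groups was irradiated once with 20 Gy and sampled 1.5 h or 7 days later, at the time points the study assigns to its first and second phase of NF-κB activity. The fourth group was U2-OS cells that carried an shRNA to NFKBIA, the gene of the NF-κB inhibitor IκBα, and were not irradiated. For the RNA-seq the study's legend refers to its shRNA to NFKBIA that doxycycline switches on, in U2-OS cells given doxycycline beforehand. Its methods name puromycin for clonal selection, and the labels do not name the vector. For the untreated cells the labels mention no vector and no doxycycline, and none of the 20 libraries is a labelled scrambled shRNA control, so an effect of the shRNA cannot be told apart from those of the vector, selection or doxycycline.

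As background, cIAP1 and cIAP2 are ubiquitin ligases that are recruited by TRAF2 to TNF family receptors, where the chains they build pass the signal on to the IKK complex and canonical NF-κB. In resting cells the same ligases, held together with TRAF2 and TRAF3, mark NIK for destruction and so restrain the non-canonical pathway through NFKB2 and RELB. XIAP binds and inhibits caspases directly. TRAF1 lacks the RING domain of its relatives and joins complexes with TRAF2. BIRC3 and TRAF1 are well-known target genes of NF-κB, so they act both in the pathway and downstream of it.

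BIRC3 and BIRC2 lie side by side in the same orientation. In GRCh38 with the GENCODE 29 annotation, BIRC3 (ENSG00000023445) is at chr11:102317450-102339403 on the plus strand, and BIRC2 (ENSG00000110330) begins 7807 bases after its end, at chr11:102347211-102378670. The counts themselves were made on hg19, so these coordinates only locate the genes. The sequences before the gene starts are shown because the fold changes of these neighbours were far apart and because BIRC3 and TRAF1 are the members with the largest changes. They come from RefSeq (GRCh38.p14), 5′ to 3′ on the gene's strand, and stop at the annotated start of the gene. Capitals mark matches to the κB consensus, searched on both strands in the 250 bases before each RefSeq start. BIRC3 is shown at chr11:102317234-102317449, BIRC2 at chr11:102346964-102347210 and TRAF1 at chr9:120929174-120929421 on the minus strand.
BIRC3: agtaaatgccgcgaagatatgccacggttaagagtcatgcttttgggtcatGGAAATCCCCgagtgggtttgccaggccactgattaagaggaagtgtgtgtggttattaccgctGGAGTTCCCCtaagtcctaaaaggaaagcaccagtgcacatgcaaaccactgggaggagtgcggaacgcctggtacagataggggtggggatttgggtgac
BIRC2: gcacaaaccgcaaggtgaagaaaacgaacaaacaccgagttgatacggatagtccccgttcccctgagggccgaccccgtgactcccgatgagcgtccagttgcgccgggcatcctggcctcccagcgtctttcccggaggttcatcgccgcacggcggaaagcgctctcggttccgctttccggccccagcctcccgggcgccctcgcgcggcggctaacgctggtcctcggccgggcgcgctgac
TRAF1: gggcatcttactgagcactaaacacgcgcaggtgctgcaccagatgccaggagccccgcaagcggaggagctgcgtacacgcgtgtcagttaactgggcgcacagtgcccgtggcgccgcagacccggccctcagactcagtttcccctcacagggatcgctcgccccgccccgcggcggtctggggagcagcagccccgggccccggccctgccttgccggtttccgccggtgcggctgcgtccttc
The BIRC3 window held 2 matches, 199 to 190 and 135 to 126 bases before the RefSeq start, both on the other strand. All 7 genes matched the RefSeq table, with 12 windows in all. The only other member with a match was TRAF3, with 1 match, 33 to 24 bases before its start. That match reads GGGGATTTCC on the gene's strand, as the distal BIRC3 match does on its own strand. No match was found in the 2 windows of BIRC2, the 3 of XIAP, the 3 of TRAF1 or the single windows of TRAF2 and MAP3K14, which says only that these letters are not in those windows. Of all 35116 windows in the table, 9.96% held at least 1 match and 1.72% held 2 or more. A match describes letters and shows no binding.

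The libraries held 22535659 to 40390961 reads on genes, and the members had from 191 reads, for TRAF1 in a knockdown library, to 3714, for BIRC3 at 7 days. Levels are given as CPM, counts per 1000000 reads on genes after TMM scaling, as mean ± SD over 5 libraries. The libraries of a group are labelled as separate samples, and the p-values measure the spread between them. NFKBIA, the target of the shRNA, was at 12.1 ± 0.667 CPM in the knockdown against 31.3 ± 7.25 CPM in untreated cells (log2 fold change -1.36, standard error 0.109), below every untreated library. Of 9 markers of the osteoblast lineage, RUNX2, SPARC and COL1A1 were abundant in untreated cells, whereas SP7 and IBSP, which mark osteoblasts, were at 0.0891 CPM or less and COL1A2 at 0.595 CPM or less in every library. The summed level of the 9 was 4005 to 4751 CPM in untreated libraries, 3677 to 3986 at 1.5 h, 2756 to 3179 at 7 days and 2804 to 2970 CPM in the knockdown. RUNX2 was called lower at 1.5 h, where called means a log2 fold change over 0.5 in size and an adjusted p below 0.05 by edgeR (116 CPM in untreated cells and 78.4 CPM at 1.5 h, with overlapping ranges), and it overlaps another gene of the table on the other strand. COL1A1 was at 1974 CPM in untreated cells and 617 CPM with the shRNA, and ALPL at 26.9 CPM in untreated cells, 6.84 CPM with the shRNA and 45.4 CPM at 7 days. SPP1 was at 12.0 CPM in untreated cells and 74.3 CPM at 7 days, and SPARC at 2137 and 1275 CPM. The summed level of 9 blood cell markers was 5.23 to 12.8 CPM in untreated libraries, 5.32 to 7.24 CPM at 1.5 h and 7.03 to 8.25 CPM in the knockdown. At 7 days that sum was 33.6 to 38.2 CPM, largely from CD68 (23.2 ± 1.67 CPM). Of the 4 blood cell markers tested, CD68, CD3D and ITGAM were called higher at 7 days, where 16.7% of all genes were. With the shRNA CD3D was called higher (5.18% of all genes) and PTPRC and ITGAM lower (7.53%). The 5 epithelial and endothelial markers in the table summed to 6.23 to 8.04 CPM in untreated libraries, 6.24 to 8.36 at 1.5 h, 4.40 to 5.26 at 7 days and 3.67 to 4.73 CPM in the knockdown. Of these 4 were tested. KRT5, EPCAM and CDH1 were called lower at 7 days (14.4% of all genes), and KRT5 and CDH1 with the shRNA (7.53%). Whether the changes of the markers in these 3 lists bear on the levels of the members was not tested. The groups were spread over sequencing lanes, as the labels give them. Untreated and 1.5 h libraries met only in lane 3, 1.5 h and 7 days in lane 4, and 7 days and knockdown in lane 5. No lane held untreated libraries together with either 7 day or knockdown libraries, so those comparisons have no value within a lane and are linked only through the lanes of the other groups. Values from a fit with a term for the lane are given for each gene. Because lane 2 held only untreated libraries, that fit compares untreated cells with the other groups through untreated replicate 5, in lane 3, alone. That replicate had the fewest reads on genes of all libraries (22535659) and the lowest TMM factor (0.933).

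Per kilobase of gene length, the scale on which genes can be compared with each other, BIRC2 was the most abundant member in untreated cells. Its level was 13.8 ± 1.70 CPM per kilobase, followed by TRAF2 at 9.11 ± 1.39, BIRC3 at 4.27 ± 0.610, XIAP at 3.72 ± 0.337, TRAF3 at 3.39 ± 0.301 and TRAF1 at 1.43 ± 0.0838 CPM per kilobase. The ranges of BIRC3 and XIAP overlapped, as did those of XIAP and TRAF3, whereas the other neighbours in this order had ranges that did not meet. At 7 days the order was BIRC2 (19.3 ± 0.334), BIRC3 (13.5 ± 0.769), TRAF2 (7.59 ± 0.300), TRAF1 (6.05 ± 0.692), XIAP (5.30 ± 0.279) and TRAF3 (3.88 ± 0.160 CPM per kilobase), with overlapping ranges for TRAF1 and XIAP. In the knockdown BIRC3, at 2.59 ± 0.238 CPM per kilobase, lay beside TRAF3 at 2.80 ± 0.0951 with overlapping ranges, and only TRAF1, at 1.16 ± 0.0822, was lower. BIRC2 led the members in all 4 groups.

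**Figure D1:**
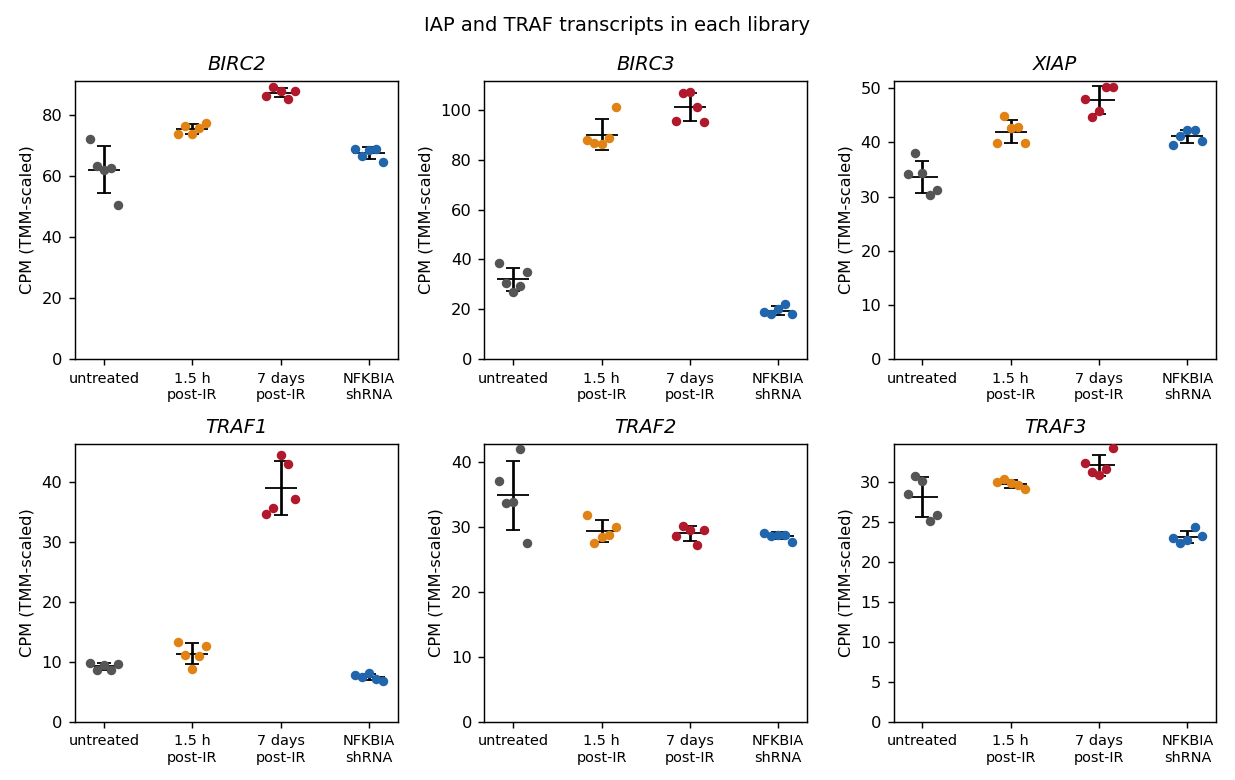
Each panel plots CPM (vertical axis, from 0) of 1 gene in the 20 libraries, by group; points are libraries and bars are the mean and SD of 5 libraries. BIRC3 was high at both times post-IR and low with the NFKBIA shRNA, TRAF1 was high at 7 days, and the other genes moved less.

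A gene was called changed when its log2 fold change exceeded 0.5 in size and its adjusted p was below 0.05 in the quasi-likelihood test of edgeR, adjusted by Benjamini-Hochberg over the 14992 genes tested. At 1.5 h post-IR 1 of 6 members was called higher and 0 lower, where 2.08% of all genes were called higher and 1.57% lower. DESeq2 gave the same counts, and at an unadjusted p under 0.05 there were 4 members higher and 1 lower, where 15.7% and 17.7% of all genes were. At 7 days 3 members were called higher and 0 lower, against 16.7% and 14.4% of all genes. With the NFKBIA shRNA 0 were called higher and 1 lower, against 5.18% and 7.53% of all genes. At an unadjusted p under 0.05, 1 member was higher and 4 were lower in that comparison, where 23.5% and 25.1% of all genes were. Between 7 days and 1.5 h, 1 was called higher and 0 lower, against 16.8% and 12.6%, and between 7 days and the knockdown 2 were called higher and 0 lower, against 15.8% and 9.89% of all genes. DESeq2 called 0 members in the same direction wherever edgeR called 0. At an unadjusted p under 0.05, 5 members were higher and 1 was lower at 7 days than in untreated cells (34.5% and 32.8% of all genes), 4 were higher and 0 lower than at 1.5 h (33.6% and 30.4%), and 5 were higher and 0 lower than in the knockdown (31.5% and 29.8%). With the adjusted p alone and no fold limit, 4 members were higher and 1 lower at 1.5 h (11.1% and 10.2% of all genes), 5 and 1 at 7 days (32.9% and 31.2%), and 1 and 4 with the shRNA (19.5% and 21.1%). Under that rule 3 were higher and 0 lower at 7 days than at 1.5 h (32% and 28.9%), and 5 and 0 than in the knockdown (29.7% and 27.7%). The median log2 fold change of the 6 members was 0.29 at 1.5 h (-0.03 over all genes), 0.50 at 7 days (0.01 over all genes) and -0.28 with the shRNA (-0.01 over all genes). The first 3 comparisons share the untreated libraries, so their values are not independent of each other. In such bulk RNA, fewer cells that express a gene and less RNA per cell cannot be told apart.

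**Figure D2:**
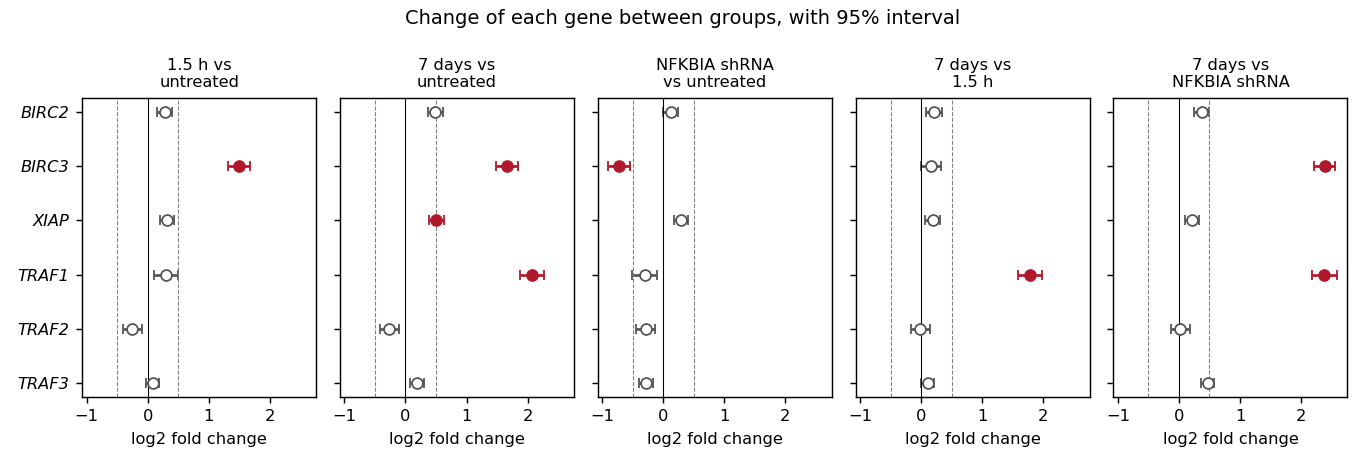
Each panel is 1 comparison of groups; points are log2 fold changes from edgeR (horizontal axis) of the 6 genes, with 95% intervals, filled red where called, and dashed lines at 0.5 and -0.5. BIRC3 was called in every comparison except 7 days against 1.5 h, and TRAF1 in the 3 comparisons that involve 7 days.

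Of the IAPs, BIRC3, which encodes the inducible cIAP2, changed most and in both directions. In untreated cells it was at 38.4, 30.4, 27.0, 29.2 and 34.8 CPM in replicates 1 to 5, and at 1.5 h post-IR at 87.8, 86.5, 86.1, 88.7 and 101 CPM. At 7 days the libraries had 95.5, 107, 107, 101 and 95.2 CPM, and with the NFKBIA shRNA 18.9, 17.9, 19.9, 22.2 and 17.9 CPM. Every irradiated library thus lay above, and every knockdown library below, all untreated libraries, while the 2 times post-IR overlapped. BIRC3 rose 2.82-fold at 1.5 h (log2 fold change 1.497, standard error 0.0827, adjusted p = 4.04e-11) and 3.17-fold at 7 days (1.66, adjusted p = 3.45e-13). Its rise at 1.5 h was the 26th highest of 14992 log2 fold changes, and at 7 days it ranked 552nd. Between 7 days and 1.5 h the log2 difference was 0.17 (adjusted p = 0.0775 by edgeR's quasi-likelihood test), which did not pass the test, while an exact permutation test on the levels gave p = 0.0317 (two-sided). With all libraries kept, the adjusted p was 0.0434 with library size alone, 0.0320 with upper-quartile scaling and 0.00583 in a fit of the 2 groups alone, and ranged from 0.0697 to 0.571 in the other 6 alternatives, each under the fold limit. With the shRNA BIRC3 fell by 0.72 on the log2 scale (standard error 0.0843, adjusted p = 8.45e-07), and 7 day cells exceeded knockdown cells by a log2 difference of 2.39 (adjusted p = 2.70e-15, all by edgeR's quasi-likelihood test). An exact permutation test on the levels gave p = 0.00794 (two-sided), the smallest that 5 against 5 libraries allow, for each comparison with untreated cells. Within lane 3, the log2 difference between 1.5 h and the 1 untreated library there was 1.32, within lane 4 that between 7 days and 1.5 h was 0.09, and within lane 5 that between 7 days and the 1 knockdown library was 2.42. With the lane as a factor, BIRC3 with the shRNA stood at -1.01 against untreated cells (adjusted p = 0.00491).

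BIRC2, which encodes cIAP1, the constitutive relative of cIAP2, was higher post-IR by less than the fold limit. Untreated replicates 1 to 5 had 72.1, 63.3, 61.9, 62.8 and 50.5 CPM, and the 1.5 h libraries 73.8, 76.5, 73.7, 75.9 and 77.4 CPM. At 7 days it was at 86.4, 89.3, 88.0, 85.4 and 87.9 CPM, and in the knockdown at 69.0, 66.5, 68.6, 69.1 and 64.8 CPM. All irradiated libraries were above all untreated ones, the 7 day libraries were above those at 1.5 h, and knockdown libraries fell within the untreated range. The log2 difference from untreated cells was 0.28 at 1.5 h (adjusted p = 0.00250) and 0.49 at 7 days (adjusted p = 4.96e-07 by edgeR's quasi-likelihood test), the latter just short of 0.5. With the shRNA it was 0.12 (adjusted p = 0.124), ranging as each library was left out from 0.039 without untreated replicate 5 to 0.18 without untreated replicate 1, where the adjusted p by edgeR was 0.0132. A term for the lane moved this value to 0.43. There the comparison rests on untreated replicate 5 alone, the lowest of its group. The call at 7 days depended on the processing: the value was 0.53 when counts were scaled by library size alone, 0.51 with upper-quartile scaling and 0.76 in a fit with a term for the lane. The limit was also passed, at 0.55, without untreated replicate 1, the highest of its group. Within lane 3, where the 1 untreated library was replicate 5, the lowest of its group, the difference at 1.5 h was 0.56, and within lane 4 the 7 day libraries exceeded those at 1.5 h by 0.20, against 0.21 with all libraries.

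XIAP, the direct caspase inhibitor (ENSG00000101966, chrX:123859724-123913979 in GRCh38), was higher than in untreated cells in all other groups. Untreated replicates had 34.2, 38.0, 34.3, 30.3 and 31.2 CPM, and those at 1.5 h 39.9, 44.8, 42.6, 42.8 and 39.8 CPM. At 7 days the values were 48.1, 44.7, 45.8, 50.3 and 50.2 CPM, and with the shRNA 39.6, 41.2, 42.3, 42.2 and 40.4 CPM. No library of these 3 groups came as low as the highest untreated library. The log2 fold change at 7 days, 0.51 (standard error 0.0573, adjusted p = 1.33e-07), was called, just past the limit. At 1.5 h the difference was 0.32 (adjusted p = 0.000407) and with the shRNA 0.29 (adjusted p = 0.000411 by edgeR's quasi-likelihood test), under the fold limit. With a fold limit of 1, XIAP was not called at 7 days. With the limit at 0.5, the call was lost with DESeq2 (0.49), RLE scaling (0.49) and no filter on low counts (0.47). A fit of the 2 groups alone (0.49) lost it too. So did leaving out untreated replicate 4 (0.45) or 5, or replicate 1, 4 or 5 at 7 days. With the tested genes and scaling kept as for all libraries, leaving out replicate 1 at 7 days did not lose it (0.50), and leaving out the other 4 of these did. In a fit with a term for the lane it stood at 0.61, and the value with the shRNA at 0.31 (adjusted p = 0.166). Within lane 3 the difference at 1.5 h was 0.44. XIAP and BIRC2 had near-equal log2 differences at 7 days, so the call of 1 and not the other shows no difference between them. XIAP overlaps an antisense RNA, a pseudogene and a small nuclear RNA in the annotation, and how the authors' counting treated strand is not given in the sources used here.

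Because the reads of both genes come from the same library, the ratio of BIRC3 to BIRC2 needs no scaling between libraries. Per base of gene length it was 0.314 in untreated cells (range 0.264 to 0.416), 0.720 at 1.5 h (0.682 to 0.790) and 0.698 at 7 days (0.653 to 0.735). With the shRNA it was 0.173 (0.162 to 0.194). The knockdown and untreated ranges did not meet, nor did the untreated and irradiated ones, whereas the 2 times post-IR overlapped. No stretch of 100 bases in the annotated transcripts of the 6 members tested, BIRC3 and BIRC2 among them, occurred in another gene's transcripts. Of stretches of 50 bases, BIRC3 and BIRC2 shared 11 with each other, and XIAP shared 425 of its 9324 (4.56%) with other genes.

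**Figure D3:**
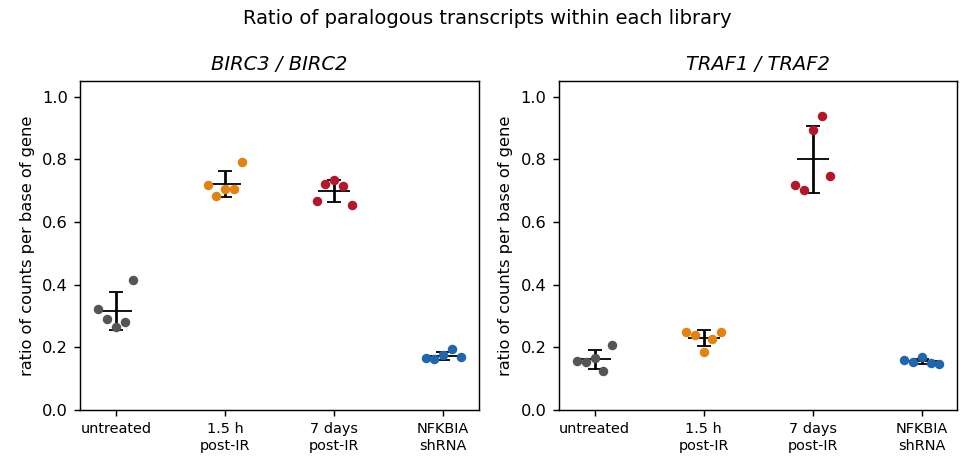
Ratio of read counts per base of gene within each library (vertical axis, from 0) for BIRC3 over BIRC2 and TRAF1 over TRAF2, by group; points are libraries and bars the mean and SD of 5. BIRC3 approached BIRC2 at both times post-IR (means 0.720 and 0.698), whereas TRAF1 approached TRAF2 at 7 days (mean 0.799).

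Of the TRAF adaptors, TRAF1 was called changed, in each comparison that involves 7 days. TRAF1 (ENSG00000056558, chr9:120902393-120929173 in GRCh38, minus strand) was at 9.83, 8.63, 9.48, 8.70 and 9.56 CPM in untreated replicates 1 to 5 and at 13.3, 11.1, 8.80, 11.01 and 12.6 CPM at 1.5 h. At 7 days it was at 34.6, 35.7, 44.5, 43.0 and 37.2 CPM, and with the shRNA at 7.80, 7.43, 8.13, 7.18 and 6.77 CPM. The 7 day libraries stood far above all others, those at 1.5 h overlapped untreated cells through replicate 3, and the knockdown libraries were all below the untreated ones. TRAF1 rose 4.22-fold at 7 days (log2 fold change 2.08, standard error 0.0954, adjusted p = 9.15e-14), the 381st highest of 14992 values. At 1.5 h the difference was 0.30 (adjusted p = 0.0324 by edgeR's quasi-likelihood test; exact permutation test, two-sided, p = 0.0317), under the fold limit (0.19 within lane 3), and with the shRNA -0.31 (adjusted p = 0.0193). In a fit with a term for the lane these were 0.21 (adjusted p = 0.364) and -0.63 (adjusted p = 0.101), and the value at 7 days was 1.79. Between the times post-IR it rose by 1.78 (standard error 0.0931, adjusted p = 9.17e-13), and within lane 4, with 2 libraries of each, by 1.57. Compared with the knockdown, TRAF1 was higher at 7 days by 2.38 (adjusted p = 1.91e-14), and by 2.401 within lane 5.

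BIRC3 and TRAF1, the members with the largest changes, were also set side by side in time. For BIRC3 the log2 fold change at 1.5 h was 1.497 beside 1.66 at 7 days, and for TRAF1 it was 0.30 beside 2.08. Between 7 days and 1.5 h the unadjusted 95% interval of the log2 difference was 0.00032 to 0.33 for BIRC3 and 1.59 to 1.97 for TRAF1.

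TRAF2, the adaptor that recruits the cIAPs (ENSG00000127191, chr9:136881912-136926607 in GRCh38), did not pass the call in any comparison. Untreated replicates had 37.0, 33.7, 33.8, 42.0 and 27.5 CPM, those at 1.5 h 31.9, 27.4, 28.4, 28.7 and 30.0 CPM, and those at 7 days 28.6, 30.1, 29.5, 27.2 and 29.5 CPM. Knockdown libraries lay at 29.1, 28.6, 28.8, 28.8 and 27.7 CPM. The other groups were tightly placed within the untreated range or at its lower edge, with a coefficient of variation of 15.2% in untreated cells and 1.83% in the knockdown. The log2 differences from untreated cells were -0.25 at 1.5 h (adjusted p = 0.0211), -0.27 at 7 days (0.00401) and -0.29 with the shRNA (adjusted p = 0.00452, by edgeR's quasi-likelihood test). Their sign turned in a fit with a term for the lane, where they were 0.09, 0.09 and 0.11. That fit rests on untreated replicate 5 alone, which had the lowest TRAF2 of its group (27.5 CPM). Without replicate 5, and with no term for the lane, the differences were -0.33, -0.36 and -0.37. Between 7 days and 1.5 h the difference was -0.02, with an adjusted p of 0.872.

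TRAF3, which bridges NIK to the TRAF2-cIAP complex (ENSG00000131323, chr14:102777476-102911500 in GRCh38), differed in opposite directions at 7 days and in the knockdown, each time by less than the fold limit. It was at 28.4, 30.7, 30.1, 25.1 and 25.9 CPM in untreated replicates and at 30.0, 30.4, 29.8, 29.6 and 29.1 CPM at 1.5 h. The 7 day libraries had 32.4, 31.2, 30.8, 31.6 and 34.2 CPM and the knockdown libraries 23.0, 22.3, 22.7, 24.4 and 23.2 CPM. All 7 day libraries were above, and all knockdown libraries below, the untreated range, in the first case by a narrow margin. The log2 differences from untreated cells were 0.19 at 7 days (adjusted p = 0.00378), -0.28 with the shRNA (adjusted p = 0.000263) and 0.08 at 1.5 h (adjusted p = 0.289 by edgeR's quasi-likelihood test). The last was 0.034 without untreated replicate 4. With a term for the lane the 3 differences were 0.33, -0.15 and 0.22, the second with an adjusted p of 0.491. Against the knockdown, the 7 day value was 0.47 (adjusted p = 1.64e-07), close to the limit, and 0.48 within lane 5.

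The ratio of TRAF1 to TRAF2 per base of gene length, again within each library, was 0.161 in untreated cells (range 0.123 to 0.206), 0.229 at 1.5 h (0.183 to 0.249), 0.799 at 7 days (0.701 to 0.937) and 0.154 with the shRNA (0.145 to 0.167). The 7 day range stood apart from all others, while the untreated range overlapped those at 1.5 h and in the knockdown.

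The genes whose log2 CPM over the 20 libraries was most like that of each member were found by Pearson's r, as a description, since the libraries share groups and lanes. For BIRC3 they were PLK2, a kinase of the polo family (r = 0.987), the xylosyltransferase GXYLT1 (0.972) and the ephrin EFNB1 (0.969). PLK2 was at 89.0 ± 5.45 CPM in untreated cells, 162 ± 8.18 at 1.5 h, 194 ± 6.04 at 7 days and 65.3 ± 3.15 CPM in the knockdown, the same order of groups as BIRC3. TRAF1 was most like ESM1, the secreted proteoglycan endocan (r = 0.990), SAT1, an enzyme of polyamine catabolism (0.988), and the cyclin gene CCND1 (0.987). ESM1 was at 7.63 ± 0.513 CPM in untreated cells, 9.61 ± 0.989 at 1.5 h, 101 ± 8.38 at 7 days and 4.07 ± 0.263 CPM in the knockdown. BIRC2 was most like TMEM30A (0.973), XIAP like ATP13A3 (0.961), TRAF2 like ERI3 (0.928) and TRAF3 like the transcription factor gene EBF3 (0.959). Among the members themselves, r was highest for BIRC3 with TRAF3 (0.851) and BIRC2 with XIAP (0.83) and lowest for XIAP with TRAF2 (-0.643). CCND1 overlaps another gene of the table on the other strand, which the counts may not separate.

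The ligands and receptors that act upstream of the TRAFs were followed as lists, with changes given as log2 fold changes against untreated cells and levels as group means. The counts of each list stand beside the shares of all genes called higher and lower, 2.08% and 1.57% at 1.5 h, 16.7% and 14.4% at 7 days, and 5.18% and 7.53% with the shRNA. At an unadjusted p under 0.05 the shares of all genes higher and lower were 15.7% and 17.7%, 34.5% and 32.8%, and 23.5% and 25.1%. Of 17 TNF family ligands 10 were tested, and at 1.5 h 3 were called higher (2.08% of all genes) and 0 lower. These were TNF itself (0.191 to 0.668 CPM, log2 fold change 1.92, standard error 0.34), TNFSF9 (0.94) and TNFSF4 (0.77). DESeq2 also called 0 ligands lower, and 1 was lower at an unadjusted p under 0.05 (17.7% of all genes). At 7 days 3 were called higher (16.7% of all genes), namely TNFSF4, the OX40 ligand (0.502 to 6.63 CPM, log2 fold change 3.67), TNFSF10, which encodes the death ligand TRAIL (0.146 to 1.10 CPM, 2.97), and TNFSF15 (0.84). With the shRNA EDA (-0.93) and CD70 (-0.60) fell, and no ligand was called higher by either tool, with 1 higher at an unadjusted p under 0.05 (23.5% of all genes). The median log2 fold change of the ligands was -0.06, 0.40 and -0.02 in these comparisons.

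Of 19 TNF family receptors that bind TRAFs 12 were tested. At 1.5 h edgeR and DESeq2 called 0 of them, with 2 of the 12 higher and 2 lower at an unadjusted p under 0.05 (15.7% and 17.7% of all genes). At 7 days TNFRSF14, the receptor HVEM, rose from 7.01 to 30.4 CPM (log2 fold change 2.10, standard error 0.11), and EDA2R (0.99), TNFRSF21 (0.64) and TNFRSF9 (0.63) rose with it, whereas TNFRSF13C (-2.15) and NGFR (-0.87) fell. NGFR, the p75 neurotrophin receptor, rose with the shRNA from 8.66 to 22.7 CPM (1.41), as did TNFRSF1B (0.96), and TNFRSF9 (-0.92) and TNFRSF13C (-0.82) fell. The medians were 0.06, 0.40 and -0.16.

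Of the listed genes of the TNF receptor complex and of ubiquitin chain enzymes 20 were tested. Neither tool called any of them at 1.5 h or with the shRNA, and at an unadjusted p under 0.05 there were 3 higher and 7 lower at 1.5 h (15.7% and 17.7% of all genes) and 4 higher and 4 lower with the shRNA (23.5% and 25.1%). At 7 days CYLD, a deubiquitinase that removes chains from this complex, rose (67.6 to 128 CPM, log2 fold change 0.91, standard error 0.0736), as did the kinase gene IKBKB (0.65) and TRADD (0.54), 3 of the 20, where 16.7% of all genes were called higher. TRADD overlaps another gene on the other strand. Among 9 other TRAF family and TRAF-binding genes, TNFAIP3, the ubiquitin-editing enzyme A20, rose at 1.5 h (1.41) and at 7 days (0.55) and fell with the shRNA (-0.52). TRAF4 rose at 1.5 h (0.61), TRAF3IP2 rose at 7 days (0.55) and TRAIP fell at 7 days (-0.58).

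Of the other IAPs 4 of 5 were tested, and BIRC5, the mitotic IAP survivin, fell at 7 days (211 to 87.6 CPM, log2 fold change -1.27, standard error 0.0845) and with the shRNA (-0.59). Both tools called 0 of the 4 at 1.5 h, where 1 was lower at an unadjusted p under 0.05 (17.7% of all genes). Of 6 tested IAP antagonists and caspases 1 was called, SEPTIN4, at 0.51 at 7 days and -0.51 with the shRNA. Of all genes, 16.7% were called higher at 7 days and 7.53% lower with the shRNA. The first of the SEPTIN4 calls was not made by DESeq2, and the gene stood at 0.852 to 1.74 CPM. At an unadjusted p under 0.05, 1 of the 6 was higher and 0 lower at 1.5 h (15.7% and 17.7% of all genes). There were 2 higher and 1 lower at 7 days (34.5% and 32.8%), and 2 and 1 with the shRNA (23.5% and 25.1%).

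Downstream of NIK, 6 of 8 listed effectors and regulators of the non-canonical pathway were tested. RELB rose at 7 days from 31.0 to 49.1 CPM (log2 fold change 0.66, standard error 0.12) and NFKB2 from 104 to 152 CPM (0.55), and RELB fell with the shRNA to 21.8 CPM (-0.51). At 1.5 h neither tool called any, with 4 higher and 0 lower at an unadjusted p under 0.05 (15.7% and 17.7% of all genes). Of 23 tested NF-κB feedback and target genes, 8 were called higher and 0 lower at 1.5 h (2.08% and 1.57% of all genes), 10 higher and 0 lower at 7 days (16.7% and 14.4%), and 1 higher and 6 lower with the shRNA (5.18% and 7.53%). DESeq2 gave the same counts. At an unadjusted p under 0.05, 12 were higher and 0 lower at 1.5 h (15.7% and 17.7% of all genes), 15 higher and 3 lower at 7 days (34.5% and 32.8%), and 3 higher and 9 lower with the shRNA (23.5% and 25.1%). CXCL8 (1.87), TNFAIP3 (1.41) and NFKBIA (1.40) had the largest rises at 1.5 h, and CXCL8 (3.65), BCL2A1 (3.25) and IL6 (2.63) at 7 days. IL6 overlaps another gene of the table on the other strand. With the shRNA CXCL8 rose (0.60), while CCL2 (-1.19) and ICAM1 (-0.64) fell beside NFKBIA itself. RELB, NFKB2 and TNFAIP3 each belong to 2 of these lists. The lists were chosen with earlier results of these data known, so their counts do not test whether a list changed more than other genes.

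**Figure D4:**
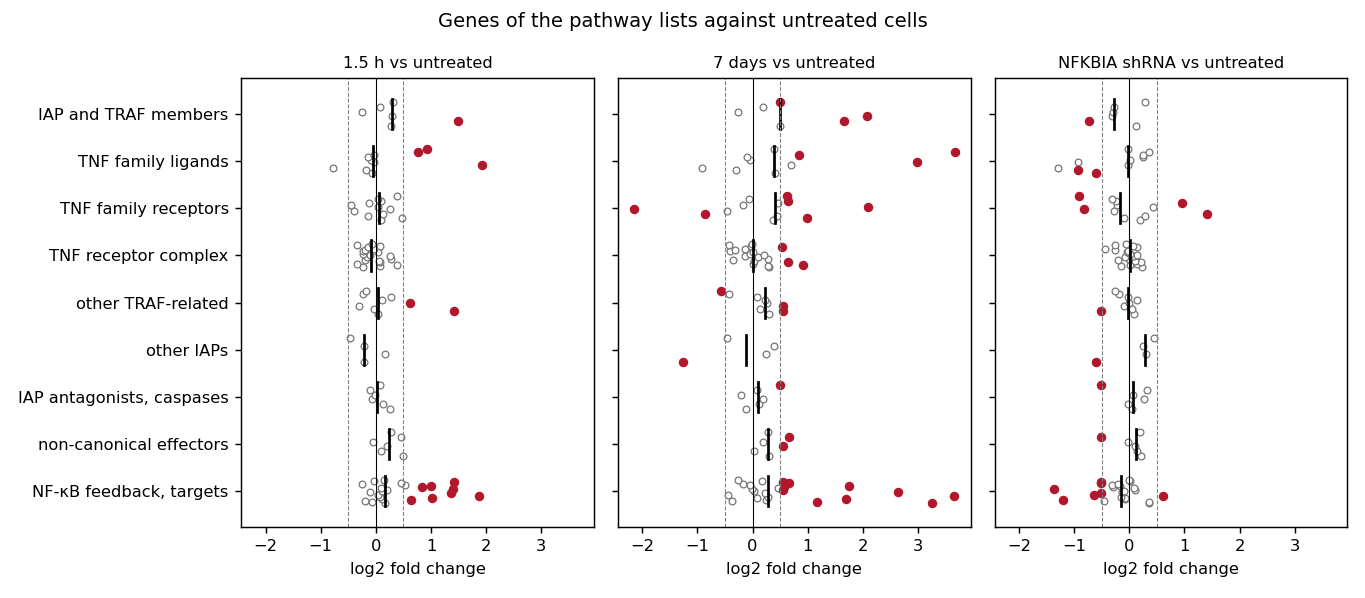
Log2 fold changes against untreated cells (horizontal axis) of the tested genes of each list, in 3 panels for 1.5 h, 7 days and the NFKBIA shRNA; each point is a gene, filled red where called, black bars are list medians and dashed lines mark 0.5 and -0.5. Called genes of the target list lay to the right at 1.5 h and 7 days, and 6 of its 7 called genes lay to the left with the shRNA.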

How the data were processed

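RNA-seq libraries of U2-OS cells were analysed from the table of raw counts per gene that the authors deposited, with a gene symbol and a gene length in bases per row. Per the submitters' processing notes, reads were demultiplexed with bcl2fastq, trimmed with Trimmomatic and aligned to hg19 with STAR 2.4.2a. The counting tool, its strand setting and its annotation are not given in the sources used here. Groups and lanes came from the labels. Counts were filtered with filterByExpr (minimum count 10), which kept 14992 genes, scaled by TMM and tested over all 20 libraries with edgeR 4.0.16 (quasi-likelihood test, R 4.3.3, prior count 2), with Benjamini-Hochberg adjustment over all genes tested. DESeq2 1.42.0 was an alternative. CPM per kilobase used the deposited lengths. Single levels were compared by exact permutation tests. Named genes were the members, NFKBIA, up to 3 called genes per list, direction and comparison, and the 3 genes most like each member; TNFRSF9 at 7 days, to complete a count, and the lineage markers SP7, IBSP and COL1A2 were named beyond that rule after their values were seen. The members and lists were chosen with earlier results of these data known. The test was checked on simulated data. Alternatives were other scalings, filters and fold limits, DESeq2, the lane as a factor, a replicate block, fits of 2 groups and leaving out each library, with the filter and scaling redone on the others. An alternative added after seeing the data kept the tested genes and scaling factors of all libraries. The expression of MAP3K14 was not analysed here.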

Additional observations from a re-analysis of the deposited data

Results flagged for a closer look

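BIRC3 in replicate 5 at 1.5 h post-IR, at 101 CPM, lay farther above the other 4 libraries of its group (86.1 to 88.7 CPM) than Dixon's test at the 95% level allows. It was the 1 such sample among 24 sets of libraries tested (6 genes in 4 groups), where chance gives about 1 in 20. Without that library the log2 fold change between 7 days and 1.5 h was 0.21, with an adjusted p of 0.0357 by edgeR's quasi-likelihood test, against 0.17 and 0.0775 with it. In these fits the filter and scaling were redone on the remaining libraries, and leaving out another 1.5 h library instead gave 0.13 to 0.14. With the tested genes and scaling kept as for all libraries, the value without replicate 5 was 0.21 (adjusted p = 0.0335 by edgeR).

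TRAF1 differed between the times post-IR when tested directly, with a log2 fold change of 1.78 at 7 days against 1.5 h, and every 7 day library was above every 1.5 h library.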

How the results depend on the processing

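In the comparison of 7 days with untreated cells, 2 to 4 members were called higher as each library was left out, with XIAP at 0.45 to 0.55 and BIRC2 at 0.41 to 0.55. With the lane as a factor 2 members were called higher at 1.5 h, as BIRC2 reached 0.57, and 1781 genes in all were called higher there instead of 312. With no fold limit, 4 members were called higher and 1 lower at 1.5 h (11.1% and 10.2% of all genes), 5 and 1 at 7 days (32.9% and 31.2%), 1 and 4 with the shRNA (19.5% and 21.1%), 3 higher at 7 days against 1.5 h (32%), and 5 higher at 7 days against the knockdown (29.7%). With a limit of 1 the count lower with the shRNA was 0 (307 of 14992 genes) and that higher at 7 days 2 (1146 of 14992 genes). The reversals were all of TRAF2, which was never called. With the lane as a factor it had log2 differences of 0.0898 at 1.5 h, 0.0894 at 7 days, 0.107 with the shRNA and -0.0178 at 7 days against the knockdown. Between 7 days and 1.5 h it was 0.0054 with library size alone and 0.0167 with upper-quartile scaling. Against the knockdown it ranged from -0.0113 to 0.025 as each library was left out, and was -0.0113, -0.0036 and -0.0081 without replicate 2 or 3 at 7 days or knockdown replicate 5. With the tested genes and scaling kept as for all libraries, an alternative added after seeing the data, the counts of members called as each library was left out were again 2 to 4 higher at 7 days, and TRAF2 between 7 days and 1.5 h turned to 0.0165 without 1.5 h replicate 1 and 0.00651 without replicate 4 at 7 days. The cause was not tested.

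Replicate numbers did not pair the libraries: same-numbered libraries deviated from their group means with r of -0.254 to 0.121, and in no comparison did more than 4 of the 10 libraries deviate most like the library of their own number. A fit with the replicate number as a block changed no member's call, with 1 called higher at 1.5 h, 3 at 7 days and 1 lower with the shRNA. Over all genes the block gave 310 and 186 calls higher and lower at 1.5 h, against 312 and 236.

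The lane factor rests on 1 untreated library in lane 3. All scalings moved the median of all genes by under 0.1.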
